A study of Rattus norvegicus with 6 samples.

Results

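Elastic fibre and crosslinking genes are described here in synovial fibroblast-like cells of arthritic rats grown in 3 kinds of serum. The set held 10 genes, chosen by name from the deposited table: Eln, Fbn1, Mfap2, Mfap4, Mfap5, Ltbp2, Fbln5, Lox, Loxl1 and Loxl2. Each had 1 row among the 17221 transcript rows and 16499 distinct symbols of that table. Of these 10 genes, 9 were among the 9820 rows tested, while Mfap2 fell below the filter on low values (at least 1 CPM, a read count scaled to library size, in both libraries of a group). These genes and the gene lists below were chosen with earlier results of these data known. Their called shares, set beside those of all features, are therefore descriptions only.

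The cells were adherent cells from the joint lining of female Wistar rats with collagen-induced arthritis, taken before any therapy, and poly(A) RNA was sequenced after the culture. Cells of 2 rats were each divided over 3 media, giving 6 libraries and 2 per group. The FBS group received fetal bovine serum, the MS- group serum of untreated animals, and the MS+ group serum of animals after 18 days of mechanical stimulation by needle, which the labels call acupuncture. All 3 groups therefore held cells of the same 2 arthritic rats, with rat 1 as replicate 1 and rat 2 as replicate 2 throughout, and the replicate was the rat that gave the cells. The number of animals behind each serum was not given for the cultures, and 1 description field of the MS- libraries names healthy rats while their disease field names arthritis. FBS also differs from the other sera by species, so that difference and the state of the serum donors cannot be told apart in the comparisons with FBS.

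Elastic fibres give stretch and recoil to skin, vessels, lung and joint tissue. Tropoelastin, the product of Eln, is deposited on a scaffold of fibrillin microfibrils, with fibulins guiding it to the scaffold, and enzymes of the lysyl oxidase family then join the chains by oxidising lysine side chains. The same enzymes crosslink fibrillar collagens, which are the main product of synovial fibroblasts, and the latent TGF-beta binding proteins tie growth factor stores to the microfibrils.

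The libraries held 5463316 to 5991889 reads and 9678 to 9749 features at 1 CPM or more. Of the 12 fibroblast markers 10 reached 1 CPM in every library, and Col1a1 measured 23563 to 40458 CPM. Prg4, the gene of lubricin, was among these 10 but passed by little, at 1.27 to 3.32 CPM and 67 reads in the 6 libraries. Dcn, the gene of the proteoglycan decorin, had only 7 reads in the 6 libraries and Lum, the gene of lumican, only 17, so these 2 genes, both usual marks of synovial fibroblasts, were all but absent. The smooth muscle list summed to 3751 to 4508 CPM, with Myh11 at 625 to 1056 CPM. The epithelial list summed to 0.183 to 1.28 CPM, the endothelial list to 0.362 to 2.20 CPM and the macrophage list to 13.8 to 20.9 CPM, the last almost wholly Cd14, with Ptprc, Aif1 and Itgam at 0 reads. Among the chondrocyte genes, Acan held nearly all of the sum of 1456 to 3020 CPM. In bulk RNA, fewer cells of a type and less RNA per cell cannot be told apart.

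Promoter sequences of RefSeq (assembly GRCr8, 250 bases before to 50 after the start) were at hand for 6 of the 10 members: Fbln5, Fbn1, Loxl1, Ltbp2, Mfap2 and Mfap5. They were searched on both strands for TGANTCA (the AP-1 site), CAGACA (a Smad element), GGGCGG (an Sp1 box) and TATAAA. Over 33469 rat promoters, 7.33% held TGANTCA, 21.1% CAGACA, 33.1% GGGCGG and 14.2% TATAAA. The 3 printed here belong to the members on which the results below turn. With the rat as a term of the fit, Loxl1 and Ltbp2 were the 2 members called lower in MS+ than in MS-. Mfap5 differed most between the rats among the members with a promoter at hand. Capitals mark every match of a searched motif on either strand.
Loxl1 (chr8:67612175-67612474, GRCr8, minus strand): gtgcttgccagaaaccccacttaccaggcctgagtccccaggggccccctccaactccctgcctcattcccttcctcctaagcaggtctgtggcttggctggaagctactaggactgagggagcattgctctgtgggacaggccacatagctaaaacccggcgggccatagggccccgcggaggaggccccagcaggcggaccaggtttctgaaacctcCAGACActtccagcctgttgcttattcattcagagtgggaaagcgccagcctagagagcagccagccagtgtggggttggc
Ltbp2 (chr6:110257249-110257548, GRCr8, minus strand): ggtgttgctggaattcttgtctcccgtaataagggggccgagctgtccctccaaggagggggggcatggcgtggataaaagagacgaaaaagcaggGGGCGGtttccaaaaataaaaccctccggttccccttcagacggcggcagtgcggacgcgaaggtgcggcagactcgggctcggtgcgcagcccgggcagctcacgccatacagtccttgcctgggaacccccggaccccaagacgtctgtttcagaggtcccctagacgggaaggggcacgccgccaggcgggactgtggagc
Mfap5 (chr4:157399669-157399968, GRCr8, plus strand): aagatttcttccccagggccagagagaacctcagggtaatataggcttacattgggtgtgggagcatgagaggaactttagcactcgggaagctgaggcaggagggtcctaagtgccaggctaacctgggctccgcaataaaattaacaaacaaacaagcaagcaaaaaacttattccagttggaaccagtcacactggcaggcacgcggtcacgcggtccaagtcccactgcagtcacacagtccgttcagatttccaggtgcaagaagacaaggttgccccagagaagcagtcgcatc
Loxl1 held CAGACA at position -31 from the start, Ltbp2 held GGGCGG at position -154, and Mfap5 held none of the 4 motifs in this window. Of the 3 not printed, Fbn1 held CAGACA at -189, Fbln5 held GGGCGG at -196 and Mfap2 held GGGCGG at -50. A match is a run of letters and not a shown binding site, and no measurement of binding was made in these libraries.

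Eln, the core gene of the fibre (NM_012722, chromosome 12, 23033657 to 23077043 in rn4, plus strand), was read in the cells of rat 1 at 81.5 CPM under FBS, 33.7 CPM under MS- and 47.9 CPM under MS+. In rat 2 these values were 743, 649 and 588 CPM. Every library of rat 2 lay above every library of rat 1, so that the 3 sera overlapped widely, and the level followed the rat far more than the serum. The ratio of rat 2 to rat 1 was 9.12 in FBS, 19.3 in MS- and 12.3 in MS+.

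The 2 microfibril-associated genes Mfap5 and Mfap4 were split by rat in the same direction. Mfap5 (NM_001108644, chromosome 4, 158959286 to 158981967, plus strand), which encodes a small glycoprotein of the microfibril surface, measured 14.9, 9.88 and 12.6 CPM in FBS, MS- and MS+ of rat 1 and 109, 110.3 and 96.5 CPM in rat 2. Mfap4 (NM_001034124, chromosome 10, 47646157 to 47649095, plus strand), which encodes a fibrinogen-domain protein of the fibre surface, measured 2.78, 0.915 and 1.80 CPM in rat 1 and 24.7, 13.7 and 14.5 CPM in rat 2. The rat 1 values of Mfap4 rested on 5 to 17 reads per library. Between the rats the ratio was 7.32, 11.2 and 7.65 for Mfap5 and 8.88, 15.0 and 8.05 for Mfap4, again in FBS, MS- and MS+.

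These 3 genes were the members at 2-fold or more higher in rat 2 in all 3 sera, against 0.591% of the tested features (58 of 9820). No member was 2-fold or more higher in rat 1 in all 3 sera, where 0.326% of the tested features were. Ordered by the size of the mean difference between the rats on the log2(CPM + 1) scale, Eln ranked 7, Mfap5 ranked 9 and Mfap4 ranked 11 of 9820, with mean differences of 3.66, 3.00 and 2.73. The 6 features ahead of Eln were Gpm6b, LOC290595, Barx1, Agtr1a, Sim2 and Gdf10, of which LOC290595 and Barx1 were higher in rat 1. With 2 rats there is no replicate of a rat beyond the 3 media, and the 3 media share the cells, so no test was made of this difference, which was noticed after the values were seen. Among the marker lists, the chondrocyte gene Hapln1 moved with it, at 0 reads in each library of rat 1 and 2.98 to 6.24 CPM in rat 2. The fibroblast marker Cdh11, a cadherin of the joint lining, measured 397, 374 and 520 CPM in FBS, MS- and MS+ of rat 1 and 763, 668 and 817 CPM in rat 2. The smooth muscle gene Smtn likewise read 271, 188 and 218 CPM in rat 1 against 389, 349 and 365 CPM in rat 2, and the fibroblast gene Pdgfra 124, 131 and 156 CPM against 181, 168 and 228 CPM. The epithelial list did so near its floor, at 0.183 to 0.721 CPM in rat 1 and 1.08 to 1.28 CPM in rat 2, with 5 of its 7 genes in the table at 0 reads throughout. Some marker genes were instead higher in rat 1 in each serum. The smooth muscle gene Actg2 read 2193, 1591 and 2005 CPM in rat 1 against 1972, 1470 and 1910 CPM in rat 2. The macrophage gene Cd14 was also higher in rat 1. Mrc1 was read in rat 1 alone, near its floor, at 0.366 to 1.26 CPM and 15 reads in the 6 libraries. The summed chondrocyte list overlapped between the rats, at 1456 to 2673 CPM in rat 1 and 1833 to 3020 CPM in rat 2, as did the smooth muscle list, at 3751 to 4305 CPM and 4012 to 4508 CPM. The part of these cell types in the difference was not tested.

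**Figure D1:**
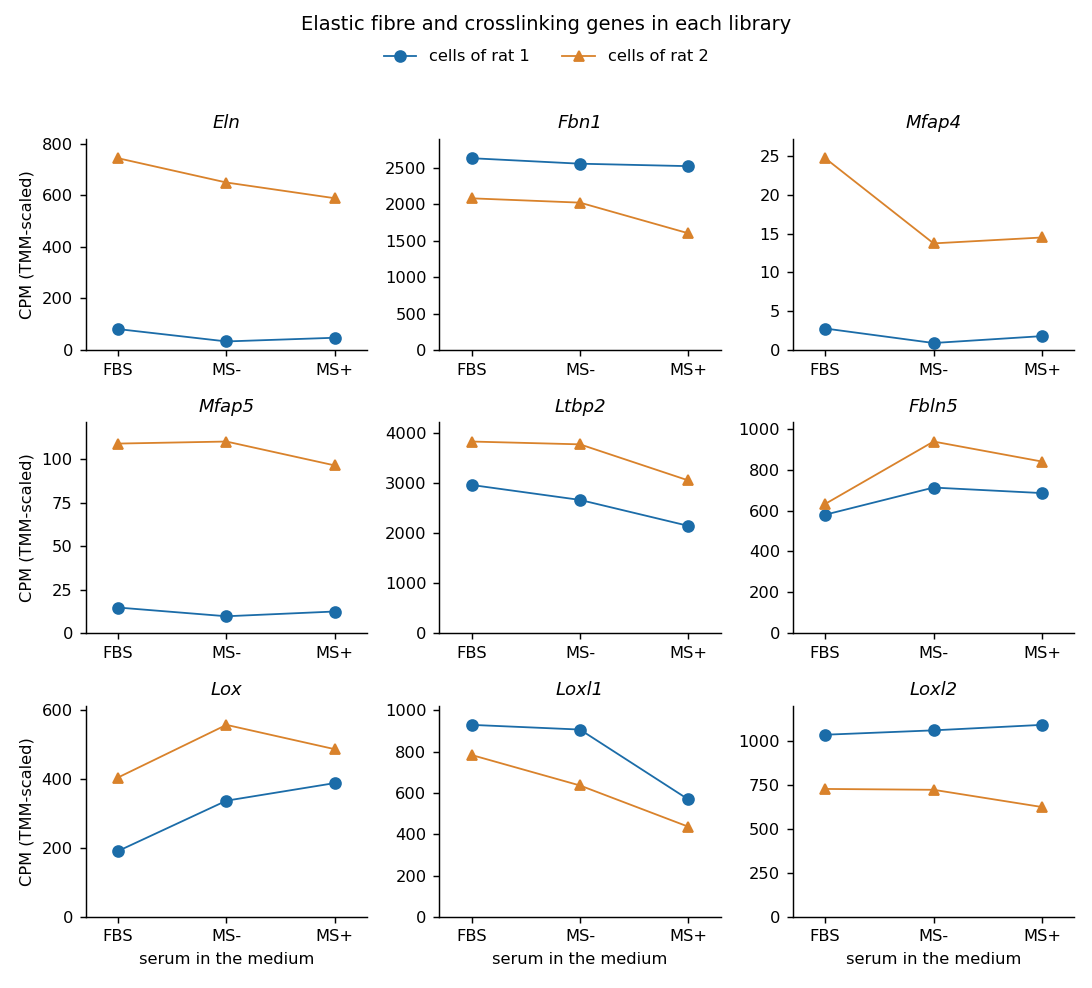
Level of the 9 tested genes in each of the 6 libraries, as CPM (vertical axis, linear from 0) by serum (horizontal axis), with circles for cells of rat 1 and triangles for cells of rat 2, and lines joining the libraries of 1 rat. Eln, Mfap4 and Mfap5 of rat 2 sit far above rat 1 in every serum, Loxl1 lies lowest in MS+ at 569 and 437 CPM, and Fbln5 and Lox are lower in FBS than in either rat serum within each rat.

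The other 6 tested members differed by less between the rats. Lox was higher in rat 2 by 2.12, 1.65 and 1.25 times in FBS, MS- and MS+, which was past 2-fold in FBS alone. Ltbp2 and Fbln5 were also higher in rat 2 in each serum, by mean differences of 0.46 and 0.27 on the log2(CPM + 1) scale. Loxl2, Fbn1 and Loxl1 were higher in rat 1 in each serum, with mean rat 2 minus rat 1 differences of -0.62, -0.44 and -0.38. So 6 of the 9 members were higher in rat 2 and 3 in rat 1 in all 3 sera, while 2097 and 2069 of the 9820 features were. The median size of the mean difference was 0.62 for the 9 members and 0.13 for all tested features.

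**Figure D2:**
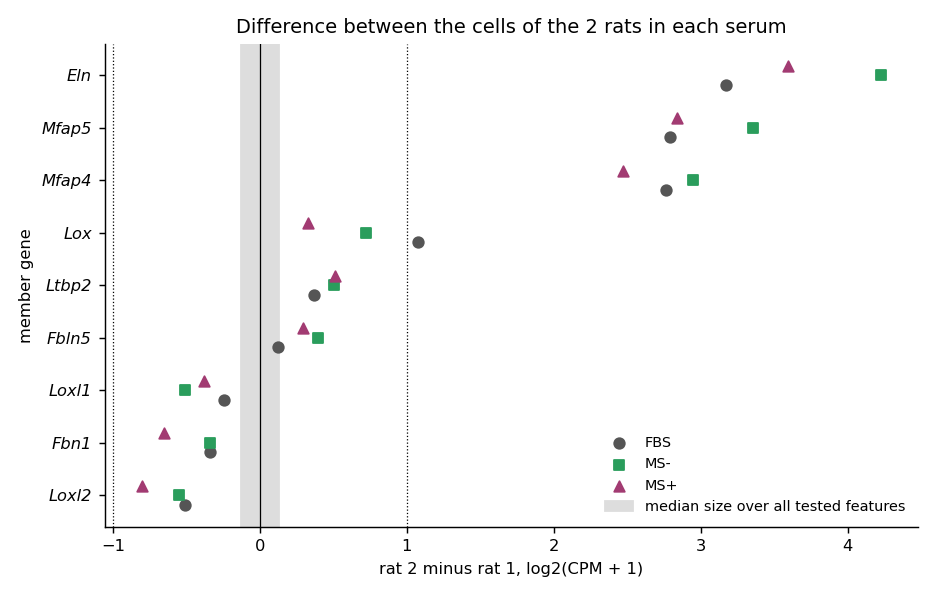
Difference between the cells of rat 2 and rat 1 in log2(CPM + 1) (horizontal axis) for the 9 tested genes (vertical axis), with 1 symbol per serum, dotted lines at a 2-fold difference and a grey band spanning the median size of the mean difference over all tested features (0.13). Eln, Mfap5 and Mfap4 lie past the dotted line in all 3 sera, and no other member does.

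Over the 6 libraries, as a description, log2(CPM + 1) of Eln had a Pearson r of 0.99 with Mfap5 and 0.99 with Mfap4, and of -0.95 with Loxl2. Fbn1 and Loxl2, both higher in rat 1, had r = 0.95. The 5 tested features most like Eln over these 6 libraries were Slc45a1 (r = 0.996), Mfap5 (0.995), Gucy1b3 (0.992), Mfap4 (0.990) and Tspyl4 (0.989), and 54 features reached 0.95. For Lox, whose level followed both rat and serum, they were Map4k3 (0.999), Gpr4 (0.993), C1ql3 (0.992), Pik3r1 (0.988) and Rab18 (0.986), and 81 features reached 0.95. The 6 points share 2 rats and 3 sera, so these values describe the 6 libraries only.

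The comparison of MS+ with MS- set serum of stimulated animals at day 18 beside serum of untreated ones. The paper's methods place the MS- draw before any therapy began, and no untreated serum of the later day was used in these libraries. Stimulation and the time of the draw can therefore not be told apart here. Loxl1 was the member that differed most: it was lower in MS+ in both rats, and its MS+ libraries lay below its MS- libraries. Loxl1, whose promoter above held CAGACA, encodes the lysyl oxidase that acts mainly on elastin (NM_001012125, chromosome 8, 62083051 to 62106827, minus strand). It measured 908 and 636 CPM in MS- (rats 1 and 2) and 569 and 437 CPM in MS+, beside 930.3 and 784 CPM in FBS. The difference was -0.67 in rat 1 and -0.54 in rat 2 on the log2 scale, with a mean of -0.61. Groups that do not overlap, with MS+ lower, were seen in 23.1% of the tested features, so that this pattern alone was common. The test was limma, a linear model fitted to log2(CPM + 1) of all features with p-values adjusted over all of them. The limma fit without the rat gave SE 0.20 and an adjusted p of 0.252 (unadjusted p 0.0210). The limma fit with the rat as a block, a term that takes out the own level of each rat, gave SE 0.08 and an adjusted p of 0.000406, and over the 13 alternatives that kept all 6 libraries the adjusted p ran from 0.000278 to 0.341. In the blocked fit the call was lost without MS- replicate 1 (adjusted p 0.106). With 1 library left out, the difference of Loxl1 ran from -0.71 to -0.51 under the block, and from -0.86 to -0.35 with unblocked fits counted too.

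Ltbp2 was the other member past the threshold once the rat was a block. It encodes a latent TGF-beta binding protein that binds fibrillin but holds no TGF-beta itself (NM_021586, chromosome 6, 108826439 to 108924746, minus strand). It measured 2671 and 3782 CPM in MS- and 2152 and 3061 CPM in MS+ in rats 1 and 2, beside 2969.95 and 3838 CPM in FBS. The groups overlapped, but within each rat MS+ was lower by the same amount, at -0.31 and -0.31. The limma adjusted p was 0.627 without the block and 0.0447 with it (SE 0.09), and from 0.0275 to 0.911 over the 13 alternatives with all 6 libraries. The blocked call was lost when any 1 of the 4 MS- and MS+ libraries was left out, and with DESeq2 size factors. With 1 library left out, the difference of Ltbp2 ran from -0.34 to -0.27 under the block, and from -0.56 to -0.054 with unblocked fits counted too.

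Without the block 0 of the 9 members passed an adjusted p under 0.05 in limma, where 0.0204% of the tested features did, and 1 (Loxl1) had an unadjusted p under 0.05. In this comparison edgeR, DESeq2 and limma-voom without the block also called 0 members. With the block 2 of 9 passed, Loxl1 and Ltbp2, both lower, against 10.1% of the tested features in either direction and 4.78% with MS+ lower. The study's thresholds (an unadjusted p under 0.05 together with at least a 2-fold change, at a mean of 1 CPM) were met by 0 members and by 1.24% of the tested features. The paper used them with limma-voom, while here they were set on log2(CPM + 1). With limma-voom they were met by 0 members and 213 features in MS+ against MS-. The members' median log2 difference was -0.08, beside -0.0058 over all features. In both rats 4 members were lower in MS+ (Fbn1, Ltbp2, Fbln5 and Loxl1) and 1 was higher (Mfap4), where 34.1% and 32.5% of the tested features were. Eln had a difference of 0.50 in rat 1 and -0.14 in rat 2, so the 2 rats did not share a direction. Sums of marker lists differed between the groups too. The summed fibroblast list was 63566 to 66163 CPM in MS- and 72080 to 74697 CPM in MS+. The smooth muscle list was 3751 to 4012 and 4305 to 4508 CPM, and the chondrocyte list 1456 to 1833 and 2548 to 2673 CPM. Single genes did not all go with their list. Col1a1 was higher in MS+ (28736 and 25507 CPM against 23563 and 23624 CPM in MS-), while Pdgfrb was lower (2348 and 2137 against 2500 and 2518 CPM). In the smooth muscle list Actg2 was higher in MS+ (2005 and 1910 against 1591 and 1470 CPM) and Lmod1 lower (607 and 658 against 659 and 701 CPM). The part of these lists in the differences was not tested.

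**Figure D3:**
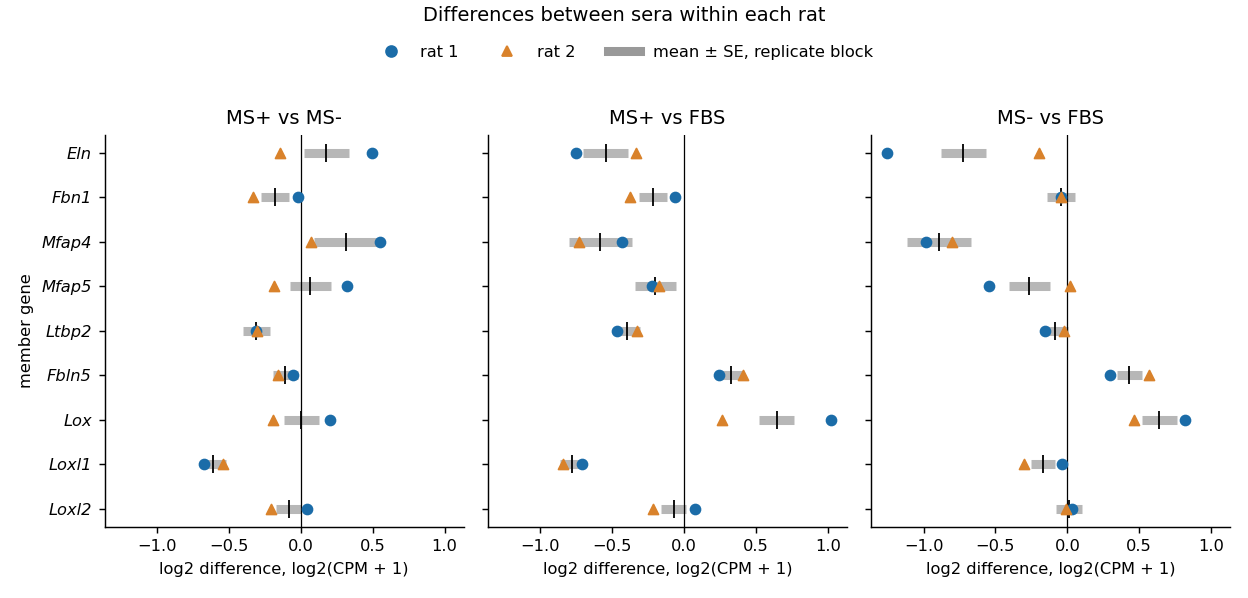
Log2 difference between sera within each rat (horizontal axis, log2(CPM + 1) scale) for the 9 tested genes (vertical axis) in the 3 comparisons, with circles for rat 1, triangles for rat 2, and a black tick with a grey bar for the mean ± SE of the limma fit with the rat as a block. Loxl1 lies left of 0 in both rats against MS- and FBS, and Lox and Fbln5 lie right of 0 in both rats against FBS. The 2 rats lie far apart for Eln in MS- against FBS (-1.25 and -0.20). They also do for Lox in MS+ against FBS (1.02 and 0.27).

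Against FBS, the crosslinking enzymes differed in direction within each rat. Loxl1 was lower in MS+ than in FBS with differences of -0.71 in rat 1 and -0.84 in rat 2, and all its MS+ libraries lay below its FBS libraries, as did 28.3% of the tested features. Its mean log2 difference was -0.78, with limma adjusted p of 0.0623 unblocked (SE 0.20, unadjusted p 0.00692) and 7.25e-06 blocked (SE 0.08). Over the 13 alternatives with all 6 libraries its adjusted p ran from 2.93e-06 to 0.111, and without the block library totals and DESeq2 also called it. Leaving out 1 library, blocked or not, gave -0.97 to -0.59. Between MS- and FBS its differences were -0.04 and -0.30, with an adjusted p of 0.187 in the blocked limma fit and 0.116 to 0.898 over the alternatives.

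Lox, which encodes the founding lysyl oxidase and acts on collagen and elastin, was higher in both rat sera than in FBS within each rat. It lies on chromosome 18 (NM_017061, 47896674 to 47970829, minus strand) and its span overlaps that of Zfp474 on the other strand, which had 0 to 4 reads per library. Lox measured 191 and 404 CPM in FBS, 337 and 557 CPM in MS-, and 388 and 486 CPM in MS+ in rats 1 and 2. The groups overlapped, with rat 2 above rat 1 in each serum, while within each rat both rat sera were above FBS, by 0.82 and 0.46 in MS- and by 1.02 and 0.27 in MS+. For MS+ the mean was 0.64, with limma adjusted p of 0.310 unblocked (SE 0.37) and 0.00114 blocked (SE 0.12), and from 0.000896 to 0.679 over the 13 alternatives with all 6 libraries. For MS- the mean was 0.64 too, with adjusted p of 0.384 unblocked (SE 0.37) and 0.00165 blocked (SE 0.12), and from 0.00144 to 0.788 over the alternatives. The blocked call for MS- was lost without MS- replicate 1 (0.0588) or MS- replicate 2 (0.0633). In size the blocked difference was 0.37 for MS+ and 0.36 for MS- without FBS replicate 1, and 0.36 for MS+ without MS+ replicate 1, beside 0.64 with all 6 libraries. With 1 library left out, with or without the block, the difference of Lox ran from 0.10 to 1.18 in each comparison with FBS. Between MS+ and MS- the 2 rats differed in direction for Lox, at 0.20 and -0.20.

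Loxl2, a family member that crosslinks collagen IV and also acts inside the nucleus (NM_001106047, chromosome 15, 49982103 to 50068900, plus strand), measured 1036, 1060.5 and 1092 CPM in FBS, MS- and MS+ of rat 1 and 727, 722 and 624 CPM in rat 2. It was past no threshold in any comparison, with blocked limma differences of -0.07 (SE 0.09) for MS+ and 0.01 (SE 0.09) for MS- against FBS. A missed threshold does not show that Loxl2 was at equal levels.

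Fbln5, which encodes the fibulin that binds tropoelastin and cell-surface integrins and brings LOXL1 to the fibre, was higher in both rat sera than in FBS. It lies on chromosome 6 (NM_019153, 126018542 to 126098234, minus strand). It measured 579 and 632 CPM in FBS, 712 and 937 CPM in MS-, and 685 and 839 CPM in MS+ in rats 1 and 2. All rat-serum libraries lay above both FBS libraries, as in 28.4% of the tested features for MS+ and 27.1% for MS-. For MS- the mean log2 difference was 0.43, with limma adjusted p of 0.192 unblocked (SE 0.16, unadjusted p 0.0332) and 0.00197 blocked (SE 0.09), the range over the 13 alternatives with all 6 libraries being 0.00197 to 0.271. For MS+ it was 0.32, with adjusted p of 0.248 unblocked and 0.00995 blocked, and 0.00995 to 0.334 over the alternatives. Leaving out MS- replicate 2 ended the first blocked call (0.188) and leaving out FBS replicate 2 the second (0.107, with a difference of 0.22). With 1 library left out, blocked or not, Fbln5 ran from 0.23 to 0.63 for MS- and from 0.18 to 0.47 for MS+.

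Eln was lower in both rat sera than in FBS within each rat, by very different amounts. Against FBS the difference was -1.25 in rat 1 and -0.20 in rat 2 for MS-, and -0.75 and -0.34 for MS+. For MS- the mean was -0.72, with limma adjusted p of 0.858 unblocked (SE 1.73) and 0.00405 blocked (SE 0.16), and from 0.00238 to 0.991 over the 13 alternatives with all 6 libraries. For MS+ the mean was -0.55, with adjusted p of 0.870 unblocked and 0.0175 blocked, and from 0.00907 to 0.958 over the alternatives. The blocked SE borrows from all features: the own residual spread of Eln would give an SE of 0.38 in place of 0.16, and that of Lox 0.27 in place of 0.12. The blocked calls for Eln were lost without FBS replicate 1 for MS+ (0.282) and without MS- replicate 1 for MS- (0.299). Without those libraries the blocked differences were -0.18 and -0.30. For MS- the blocked difference was also -0.35 without FBS replicate 1, -1.09 without FBS replicate 2 and -1.15 without MS- replicate 2, and for MS+ it was -0.91 without FBS replicate 2.

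Mfap4 was lower in MS- than in FBS with differences of -0.98 in rat 1 and -0.80 in rat 2, with a mean of -0.89 (SE 0.22) and a blocked limma adjusted p of 0.00905, against 0.751 without the block and 0.00705 to 0.947 over the 13 alternatives with all 6 libraries. This blocked call was lost without either MS- library. For MS+ against FBS the differences of Mfap4 were -0.43 and -0.73, with a blocked limma adjusted p of 0.0609 and 0.0181 to 0.902 over the alternatives. Mfap5 differed by -0.22 and -0.17 in MS+ against FBS, and its 2 rats differed in direction for MS-, at -0.55 and 0.02.

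Ltbp2 was lower in MS+ than in FBS with differences of -0.46 in rat 1 and -0.33 in rat 2, with limma adjusted p of 0.348 unblocked and 0.00448 blocked (mean -0.40, SE 0.09) and 0.00131 to 0.467 over the 13 alternatives with all 6 libraries. Without MS+ replicate 1 the blocked adjusted p was 0.0596, and leaving out 1 library, blocked or not, gave differences of -0.65 to -0.14. Between MS- and FBS Ltbp2 differed by -0.15 and -0.02. Fbn1, which encodes fibrillin-1, the backbone of the microfibril (NM_031825, chromosome 3, 112608480 to 112804118, minus strand), measured 2628, 2553 and 2519 CPM in FBS, MS- and MS+ of rat 1 and 2078, 2019.5 and 1599.7 CPM in rat 2. The lowest of the 6 values was the MS+ library of rat 2, and the blocked limma adjusted p of Fbn1 was 0.108 for MS+ and 0.816 for MS- against FBS, with 0.0383 to 0.765 and 0.636 to 0.986 over the alternatives with all 6 libraries.

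Mfap2, which encodes the microfibril-associated glycoprotein partner of Mfap5 (NM_001107989, chromosome 5, 159868933 to 159874481, plus strand), had 1 read, in MS+ replicate 1, and 0 reads in the other 5 libraries. A count of 0 allows up to 3 reads, which is 0.491 to 0.551 CPM in these libraries and covers counting error only. It was not detectable at this depth in FBS or MS-.

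Counted over the set, 0 of the 9 members passed the adjusted threshold in limma without the block in MS+ against FBS, where 9.61% of the tested features did, and 0 in MS- against FBS, where 4.81% did. Each comparison had 1 member at an unadjusted p under 0.05, Loxl1 in the first and Fbln5 in the second. Among the other tools without the block, DESeq2 called 1 (Loxl1) in MS+ against FBS and 0 in MS- against FBS, and edgeR and limma-voom called 0 in each. With the block 5 passed in MS+ against FBS (Lox and Fbln5 higher, Loxl1, Ltbp2 and Eln lower), against 28.2% of the tested features, 14.4% higher and 13.9% lower. In MS- against FBS 4 passed (Lox and Fbln5 higher, Eln and Mfap4 lower), against 20.5% of the tested features, 10.8% higher and 9.63% lower. The study's thresholds were met by 0 members in either comparison and by 5.3% and 3.62% of the tested features. The members' median log2 differences were -0.22 for MS+ and -0.09 for MS-, beside 0.00078 and 0.014 over all features. In both rats 6 members were lower and 2 higher in MS+ than in FBS (36.4% and 35.9% of the tested features), and 5 were lower and 2 higher in MS- (34.2% and 38.6%). The 2 comparisons share the FBS libraries, so their values are not independent of each other. In FBS the summed fibroblast list was 82106 to 89008 CPM, above both rat sera. The smooth muscle list was 4077 to 4191 CPM, between MS- and MS+, and the chondrocyte list 2589 to 3020 CPM, above MS- and overlapping MS+. Most of the fibroblast sum came from Col1a1, Col1a2, Col3a1 and Vim. The collagen genes were higher in FBS than in either rat serum. Vim went the other way, at 11485 and 11981 CPM in FBS, 12544 and 14340 CPM in MS-, and 13972 and 16559 CPM in MS+. The part of these lists in the differences was not tested either.

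Of 52 other genes of elastic fibre assembly, crosslinking and turnover, 45 had a row and 38 were tested. Without the block limma called 0 in MS+ against MS-, 1 in MS+ against FBS (Emilin1, lower) and 0 in MS- against FBS, while 3, 7 and 11 had an unadjusted p under 0.05. Without the block edgeR, DESeq2 and limma-voom called 0 of the 38 in MS+ against MS-, then 1, 3 and 1 in MS+ against FBS, and 1, 7 and 2 in MS- against FBS. With the block 1 rose and 1 fell between MS- and MS+, 7 were higher and 5 lower in MS+ than in FBS, and 8 were higher and 8 lower in MS- than in FBS. These called shares of 5.26%, 31.6% and 42.1% of the 38 stand beside 10.1%, 28.2% and 20.5% of all tested features under the block. All adjusted p-values of single genes below are from the blocked limma fit unless stated.

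Between MS+ and MS-, Serpinh1, the collagen chaperone HSP47, was higher in MS+ by 0.32 and 0.31 in rats 1 and 2 (mean 0.31, SE 0.09, adjusted p 0.0426, and 0.307 without the block). Mfap3l, a relative of a microfibril-associated protein, was lower with differences of -0.37 and -0.59 (mean -0.48, SE 0.13, adjusted p 0.0270, and 0.196 without the block). These were the 2 blocked limma calls among the 38 genes, and each was lost without either MS- library or without MS+ replicate 2, and that of Serpinh1 also without MS+ replicate 1. Over the 13 alternatives with all 6 libraries the adjusted p ran from 0.0303 to 0.407 for Serpinh1 and from 0.0217 to 0.445 for Mfap3l.

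Among the crosslinking genes, 2 of 12 were higher and 0 lower in MS+ than in FBS with the block, and 3 were higher and 2 lower in MS-. Among all tested features 14.4% were called higher and 13.9% lower in MS+, and 10.8% higher and 9.63% lower in MS-. Without the block limma called 0 of the 12. Tgm2, the tissue transglutaminase that joins matrix proteins through glutamine and lysine, was higher in MS+ by 0.65 and 1.34 and in MS- by 0.71 and 1.51 (means 1.00 and 1.11, SE 0.25 each, adjusted p 0.00719 and 0.00465, and 0.120 and 0.132 without the block). Loxl4, a further lysyl oxidase, was higher in MS+ than in FBS by 0.99 and 0.50 (mean 0.75, SE 0.16, adjusted p 0.00309, and 0.365 without the block). The blocked calls of Tgm2 were lost without FBS replicate 2 in both comparisons (0.128 and 0.0723, with differences of 0.63 and 0.74) and, for MS-, without MS- replicate 2 (0.166), and that of Loxl4 without MS+ replicate 1 (0.0509). Over the 13 alternatives with all 6 libraries the highest adjusted p was 0.195 and 0.209 for Tgm2 and 0.527 for Loxl4. Tgm2 averaged 2.64 CPM in FBS. So among the 5 lysyl oxidase genes Lox and Loxl4 were higher and Loxl1 lower in MS+ than in FBS under the block.

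Among the microfibril genes other than the members, 2 of 9 tested were higher and 2 lower in MS+ than in FBS, and 3 higher and 1 lower in MS-, all with the block and beside those same shares of all features. Without the block limma called 1 of the 9, Emilin1 in MS+ against FBS. Ltbp1, which holds latent TGF-beta in the matrix, was higher by 0.91 and 0.55 in MS+ and by 0.78 and 0.71 in MS- (means 0.73 and 0.74, SE 0.09 each, adjusted p 3.11e-05 and 3.58e-05, and 0.0536 and 0.0752 without the block). Adamtsl4, a fibrillin-binding protein of the ciliary zonule, was higher in MS- by 0.96 and 0.75 (mean 0.85, SE 0.08, adjusted p 2.54e-06, and 0.128 without the block). The blocked limma fit also called Adamtsl4 in MS+, at 233 and 341 CPM in rats 1 and 2 against 141 and 217 CPM in FBS. Emilin1, an elastin interface protein, was lower in MS+ with differences of -0.46 and -0.40 (mean -0.43, SE 0.09, adjusted p 0.00234, and 0.0405 without the block). Ltbp4, which guides elastin deposition together with fibulin-5, was lower in MS- with differences of -0.92 and -0.60 (mean -0.76, SE 0.15, adjusted p 0.00190, and 0.605 without the block). The blocked calls of Ltbp1, of Adamtsl4 in MS- and of Emilin1 held without each single library, while that of Ltbp4 was lost without MS- replicate 1. Over the 13 alternatives the highest adjusted p was 0.0986 and 0.136 for Ltbp1 in MS+ and MS-, 0.206 for Adamtsl4 in MS-, 0.0541 for Emilin1 and 0.906 for Ltbp4. Ltbp4 was also the gene among the 38 with a 2-fold or larger excess in rat 2 in all 3 sera, with a mean difference between the rats of 1.51.

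Of the 5 fibrillar collagen genes listed, whose products are lysyl oxidase substrates, limma called 0 without the block in any comparison. With the block 3 of 5 fell below FBS in MS+ and 4 of 5 in MS-, beside 13.9% and 9.63% of the tested features, with medians of -0.28 and -0.38 and none called higher. Col1a1, the main chain of type I collagen, was lower in MS+ with differences of -0.49 and -0.43 and in MS- with differences of -0.78 and -0.54 (means -0.46 and -0.66, SE 0.14 each, adjusted p 0.0243 and 0.00376, and 0.284 and 0.195 without the block). Col5a2, a chain of the collagen that sets fibril width, was lower in MS+ with differences of -0.29 and -0.38 (mean -0.34, SE 0.10, adjusted p 0.0171, and 0.247 without the block). The blocked limma fit also called Col5a2 in MS-, at 4752 and 4153 CPM in rats 1 and 2 against 6160 and 5428 CPM in FBS. For MS+ the blocked calls of Col1a1 and Col5a2 were lost without any 1 of the 4 MS- and MS+ libraries, and for MS- that of Col1a1 without either MS- library (0.354 and 0.182). Over the 13 alternatives the highest adjusted p was 0.601 and 0.507 for Col1a1 in MS+ and MS- and 0.386 for Col5a2 in MS+. Fbln1, an assembly gene of the fibulin family, was lower in MS- with differences of -0.83 and -0.85 (mean -0.84, SE 0.16, adjusted p 0.00171, and 0.108 without the block), a call lost without MS- replicate 2 (0.0549) and reaching 0.180 over the alternatives. Of the 3 TGF-beta ligand genes 0 were called in any comparison in limma with or without the block, while 3 had an unadjusted p under 0.05 in MS- against FBS with the block, and edgeR with the block called Tgfb3 in MS- against FBS and in MS+ against MS-.

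**Figure D4:**
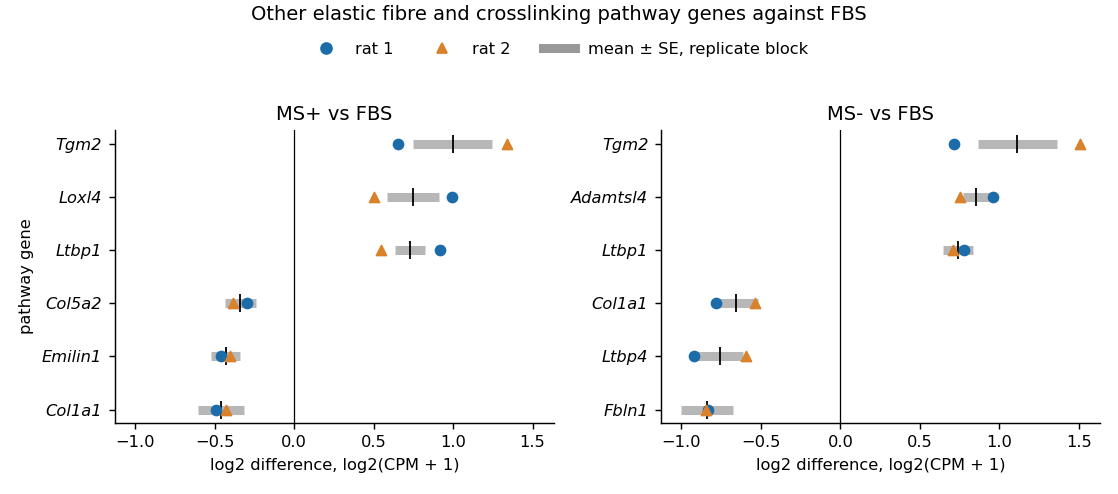
Log2 difference from FBS within each rat (horizontal axis, log2(CPM + 1) scale) for the pathway genes with the largest blocked calls in each direction (vertical axis), in MS+ (left) and MS- (right), with circles for rat 1, triangles for rat 2 and a black tick with a grey bar for the mean ± SE of the limma fit with the rat as a block. Tgm2 and Ltbp1 lie right of 0 and Col1a1 left of 0 in both rats in both panels.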

How the data were processed

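Poly(A) RNA of 6 cultures (FBS, MS- and MS+, n = 2 rats each) was sequenced for the authors. Per the submitters' processing notes, reads were aligned to rn4 with Bowtie2 2.1.0 and counted with HTSeq 0.5.4p3. Whether counting used strand was not given in the sources used here. The authors deposited a signal per transcript, CPM scaled by the TMM method. Since 100% of the values were whole multiples of 1 read (tolerance 1e-06), reads were recovered.

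Rows at 1 CPM or more in both libraries of a group were kept (9820). Differences were tested two-sided with limma 3.58.1 (eBayes with trend) in R 4.3.3 on log2(CPM + 1), with serum as the only term, all 6 libraries in the fit and Benjamini-Hochberg adjustment over all 9820 rows. Fold changes on this scale understate those of low genes. Replicate numbers pair the libraries, since each number is 1 rat per the labels. Across rows, the rat 2 minus rat 1 difference of MS+ had r = 0.59 with that of MS- and 0.49 with that of FBS, and those of MS- and FBS had r = 0.62. A blocked fit, with the rat as a further term, had 2 residual and 13.4 prior degrees of freedom. Alternatives were edgeR 4.0.16 and DESeq2 1.42.0 on recovered reads, limma-voom, other scalings, pseudocount 0.1, no filter, rows summed per symbol, and each library left out. Blocked fits with a library left out, with other scalings or with pseudocount 0.1, and the description of the rats, were added after seeing the data.

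Members and gene lists were chosen with earlier results of these data known. All members were named whatever their values. Of 52 other pathway genes the 3 largest rises and 3 largest falls per comparison were named, among those past the adjusted threshold without the block, or with it where fewer than 3 passed, with 1 direction in both rats. Of these 52, Emilin2, Adamtsl2, Adamts10, Fbln2, Fbln7, Itgav and Itgb3 were not analysed here, nor were the markers Sox9, Comp, Kdr, Vwf, Adgre1 and Krt5. Levels of different genes were not compared, as transcript lengths were not used here. Of the fits, limma with and without the block, and edgeR and DESeq2 without it, were run on simulated counts with known changes. The simulated rat effect was the same in every serum. That run therefore cannot show how the blocked fit behaves where the rats differ in their response to serum. Coordinates of genes are those of rn4, written 1-based. Each group held 1 culture per rat. Without the block, p-values measure the spread between 2 rats' cells. With the block, they measure how far the differences between sera vary between the 2 rats, with a spread borrowed largely from all features. Neither measures the spread between serum donors.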

Additional observations from a re-analysis of the deposited data

How the results depend on the processing

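Calls of members depended on the pairing by rat. Without the block 0 members were called in each comparison, and 1 (Loxl1) in MS+ against FBS with library totals and with DESeq2. With the replicate block limma called 2, 5 and 4 members in MS+ against MS-, MS+ against FBS and MS- against FBS, edgeR with the block 2, 6 and 4, the block with DESeq2 size factors 1, 5 and 4, the block with library totals 2, 7 and 4, and the block with pseudocount 0.1 again 2, 5 and 4. Leaving out 1 library, with or without the block, gave 0 to 2, 0 to 6 and 0 to 4. By the study's thresholds, leaving out 1 library gave 0 to 1 in MS+ against FBS and 0 to 2 in MS- against FBS, and the block with pseudocount 0.1 gave 1 in the latter. Of 27 member differences, 4 turned sign under an alternative with all 6 libraries, each one small. For MS+ against MS-, Eln was -0.10 in edgeR and -0.10 in DESeq2, Mfap5 -0.14 in edgeR, -0.13 in DESeq2 and -0.073 in edgeR with the block, and Lox -0.014 with library totals with or without the block, -0.032 in edgeR and -0.025 in DESeq2. For MS- against FBS, Loxl2 was -0.019 with library totals with or without the block. Counting single libraries left out, 19 of 27 turned sign, in fits with or without the block. Without the block, a group left with 1 library sets 1 rat against 2, so the difference between the rats enters these values. For Eln in MS+ against MS- the unblocked difference was -1.94 without MS- replicate 1 and 2.29 without MS- replicate 2. Under the block these were -0.25 and 0.60. How much of each change of sign came from this was not tested. The ranges below pool fits with and without the block. In MS+ against MS- the range was -1.94 to 2.29 for Eln, -0.50 to 0.15 for Fbn1, -1.16 to 1.78 for Mfap4, -1.61 to 1.74 for Mfap5, -0.30 to 0.090 for Fbln5, -0.36 to 0.37 for Lox and -0.49 to 0.32 for Loxl2. In MS+ against FBS it was -2.34 to 1.25 for Eln, -0.55 to 0.11 for Fbn1, -1.96 to 0.80 for Mfap4, -1.62 to 1.22 for Mfap5 and -0.47 to 0.33 for Loxl2. In MS- against FBS it was -2.84 to 1.39 for Eln, -0.21 to 0.13 for Fbn1, -2.36 to 0.58 for Mfap4, -1.94 to 1.41 for Mfap5, -0.34 to 0.16 for Ltbp2, -0.42 to 0.087 for Loxl1 and -0.26 to 0.29 for Loxl2. Over all features the adjusted count in MS+ against MS- was 2, with 987 under the block, 995 in edgeR with the block, 123 in DESeq2, 0 with no filter and 0 to 1631 with 1 library left out. In MS+ against FBS it was 944, with 2773 under the block, 2851 in edgeR with the block, 586 with no filter and 25 to 2727. In MS- against FBS it was 472, with 2011 under the block, 2066 in edgeR with the block, 255 with no filter and 105 to 2714. By the study's thresholds MS+ against MS- had 122, with 215 at pseudocount 0.1, 230 in edgeR, 213 in limma-voom and 284 in edgeR with the block. Counts were low for Mfap2, with 1 read in all, and for Mfap4 in rat 1.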
